A study of Mus musculus with 12 samples.

Results

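Of 45777 genes in the deposited expression table, the 9 described here encode enzymes of the mitochondrial tricarboxylic acid (TCA) cycle or feed it. They are Cs, Idh2, Idh3a, Idh3b, Ogdh, Suclg1, Fh1, Mdh2 and Pcx, selected by gene symbol, and each symbol matched 1 row. All 9 were among the 15197 genes that reached 0.5 FPKM (fragment counts scaled by transcript length and library size) in at least 3 samples and were tested. Poly(A) RNA was sequenced from CD4+ T cells of the spleen of wild type C57BL/6 mice, 7 weeks old by the sample labels, while the study's general methods give a somewhat older age range. The cells had been selected with CD4-coated magnetic beads and stimulated with anti-CD3 at 0.5 µg/ml for 3 days, and the study's general T cell method adds soluble anti-CD28. There were 4 groups of 3 samples, all sharing this stimulation: Control with no drug, Metformin, FK506, and Metformin+FK506 with both drugs. Metformin is an antidiabetic biguanide known to inhibit respiratory complex I and to activate the energy sensor AMPK. FK506 (tacrolimus) is an immunosuppressant that blocks calcineurin and with it the NFAT signal of the T cell receptor. The drug doses of these cultures were not given in the sources used here, nor whether the 3 samples of a group came from separate mice or cultures, so p-values measure the spread between these samples, which may be technical.

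The TCA cycle oxidises acetyl groups from pyruvate, fatty acids and amino acids, and passes the electrons to the respiratory chain as NADH and FADH2. Citrate synthase makes citrate, isocitrate dehydrogenases make 2-oxoglutarate, the 2-oxoglutarate dehydrogenase complex makes succinyl-CoA, and later steps return oxaloacetate. In T cells, stimulation through the antigen receptor is known to raise both glycolysis and mitochondrial metabolism, and citrate, 2-oxoglutarate and malate also leave the cycle for lipid synthesis, chromatin modification and aspartate production.

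The members lie on 9 chromosomes in the mouse build GRCm38, the same primary assembly as the mm10 named in the submitters' processing notes. By RefSeq on GRCm38.p6, Cs is at chr10:128337727-128362482, Idh2 at chr7:80094845-80118608, Idh3a at chr9:54586511-54604662 and Idh3b at chr2:130279309-130284451. Ogdh is at chr11:6291597-6359094, Suclg1 at chr6:73248505-73276907, Fh1 at chr1:175601378-175625635, Mdh2 at chr5:135778649-135790386 and Pcx at chr19:4510472-4621752. Promoter sequences, from 250 bases before to 50 bases after a RefSeq start site, were at hand for 8 of the 9 members, with 6 start sites for Ogdh and 2 for Pcx. The 5 printed here stand for the response patterns described below: Cs and Idh3b were higher with metformin alone and lower with FK506, Ogdh was higher with each treatment, and Suclg1 and Pcx were lower with each. The calls of Cs with metformin and of Idh3b with FK506 were lost under some alternatives, as given below. Each promoter runs 5′ to 3′ on the strand of its gene, and capitals mark matches to the motifs searched.
Cs, plus strand, chr10:128337477-128337776: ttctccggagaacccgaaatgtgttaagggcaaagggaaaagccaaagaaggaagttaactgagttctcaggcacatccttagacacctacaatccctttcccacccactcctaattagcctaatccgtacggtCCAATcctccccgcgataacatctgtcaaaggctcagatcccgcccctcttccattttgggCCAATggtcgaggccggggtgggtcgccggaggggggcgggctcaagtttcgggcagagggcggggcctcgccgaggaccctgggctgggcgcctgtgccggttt
Idh3b, minus strand, chr2:130284402-130284701: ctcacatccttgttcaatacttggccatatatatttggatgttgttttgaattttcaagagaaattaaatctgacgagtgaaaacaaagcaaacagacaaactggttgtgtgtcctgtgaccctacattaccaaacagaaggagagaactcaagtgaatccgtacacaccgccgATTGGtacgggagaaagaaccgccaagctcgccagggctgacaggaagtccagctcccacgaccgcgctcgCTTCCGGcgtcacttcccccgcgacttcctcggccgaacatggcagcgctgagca
Ogdh, first start site, plus strand, chr11:6291347-6291646: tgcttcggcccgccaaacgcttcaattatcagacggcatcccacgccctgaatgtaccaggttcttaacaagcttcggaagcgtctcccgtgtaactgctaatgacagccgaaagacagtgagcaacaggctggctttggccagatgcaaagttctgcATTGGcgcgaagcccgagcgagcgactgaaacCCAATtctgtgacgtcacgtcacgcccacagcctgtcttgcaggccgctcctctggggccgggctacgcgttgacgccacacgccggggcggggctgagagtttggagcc
Suclg1, plus strand, chr6:73248255-73248554: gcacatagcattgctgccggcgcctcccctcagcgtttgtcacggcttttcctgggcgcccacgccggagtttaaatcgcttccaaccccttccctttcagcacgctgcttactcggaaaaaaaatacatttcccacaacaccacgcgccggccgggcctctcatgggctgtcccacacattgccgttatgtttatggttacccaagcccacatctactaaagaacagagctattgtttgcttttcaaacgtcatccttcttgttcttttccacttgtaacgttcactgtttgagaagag
Pcx, first start site, plus strand, chr19:4510222-4510521: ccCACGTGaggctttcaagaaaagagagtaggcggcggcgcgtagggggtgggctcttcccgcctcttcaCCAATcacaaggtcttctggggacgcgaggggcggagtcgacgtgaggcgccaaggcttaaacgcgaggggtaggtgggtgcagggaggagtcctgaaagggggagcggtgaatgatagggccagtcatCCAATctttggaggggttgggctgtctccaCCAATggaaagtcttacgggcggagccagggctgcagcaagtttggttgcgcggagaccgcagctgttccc

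Both strands were searched for CCAAT (the CCAAT box), CACGTG (the E-box), CCGGAAG (an ETS motif), GCATGCG (part of the NRF1 motif) and AAGGTCA (bound by oestrogen-related receptors). CCAAT was in a promoter of 6 of the 8 members, against 37.4% of the 32851 mouse promoters of this length, and members with several start sites had more sequence in which to hold it. The Cs promoter holds it at 116 and 55 bases before the start site, and the first Pcx promoter at 180, 51 and 21 bases before it. Suclg1 and Mdh2 hold none of the 5 motifs in this window. CACGTG was found for Ogdh and Pcx (7.15% of all promoters), CCGGAAG for Idh3b (8.86%), and both GCATGCG (3.58%) and AAGGTCA (4.72%) for Ogdh at later start sites. CCAAT was shared by Cs, Ogdh and Pcx, which moved in different ways.

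The libraries held 43402632 to 64290105 counted reads, and a member had between 302 and 20187 of them. The coefficient of variation of a member's FPKM within a group ran from 0.439% to 10.5%, with a median of 4.09%. The labelled cell type and the libraries were checked with marker genes. The summed FPKM of 10 T cell markers was 1933 to 1977 in Control, 1966 to 2058 with metformin, 1657 to 1776 under FK506 and 1876 to 1949 with both drugs. Single T cell markers moved in opposite ways within that sum. From Control to FK506, mean FPKM fell from 152 to 68.4 for Thy1 and from 423 to 212 for Cd2. It rose from 140 to 199 for Cd4 and from 216 to 272 for Cd3g. The sum of 10 B cell markers was 62.9 to 66.9 in Control and 87.2 to 102 with metformin, but 886 to 926 under FK506 and 427 to 458 with both drugs. For 10 myeloid markers it was 6.52 to 6.77 in Control and 8.94 to 10.2 with metformin, but 1444 to 1506 under FK506 and 1001 to 1122 with both drugs. The 2 CD8 T cell markers summed to 9.005 to 9.52 FPKM in Control, 12.9 to 13.2 with metformin, 6.84 to 7.35 under FK506 and 6.93 to 8.64 with both drugs. C1qa, C1qc, Adgre1 and Vsig4 were at 0 in all Control libraries, as were C1qa, C1qb, C1qc, Marco and Vsig4 in all Metformin libraries, and no marker was at 0 throughout either FK506 group. All 6 libraries with FK506 thus held more B cell and myeloid marker transcripts than any without it, so each difference between a group with FK506 and one without moved together with these markers, and their part in the results was not tested. In these bulk libraries, fewer cells of a type and less RNA per cell cannot be told apart.

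**Figure D1:**
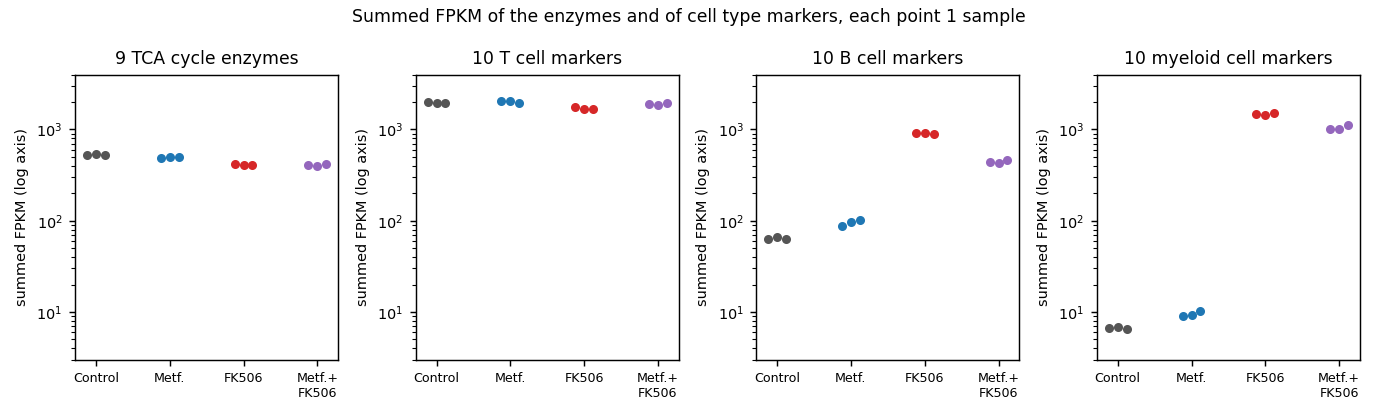
Summed FPKM on a log axis of the 9 TCA cycle enzymes and of 3 lists of cell type markers, by treatment, with 1 point for each of the 12 samples. The enzyme sum lies between 395 and 539 in every sample, while the myeloid marker sum is at most 10.2 without FK506 and at least 1001 with it.

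Summed over the 9 members, FPKM was 521 to 539 in Control, 488 to 505 with metformin, 410 to 420 under FK506 and 395 to 422 with both drugs. The FPKM scale itself differed between groups. The FPKM of all genes summed to 393339 to 414061 in each library with FK506 and to 477754 to 503231 in each without it, and the median of all genes tested was 0.185 higher on the log2(FPKM + 1) scale with FK506 than in Control. Fold changes below are from counts scaled by TMM, the scaling planned beforehand, where that median was 0.024. TMM itself centres the log ratios, so a small median does not show that this scale is the right one. Ratios of members within a library, which no library scaling can change, are given later. With limma on log2(FPKM + 1) in place of edgeR on TMM-scaled counts, the share of called genes that were higher with FK506 than in Control was 61.3% instead of 51.1%, and with limma on log2(TPM + 1) (TPM being transcript abundance scaled to a fixed sum per library) 71.2%. Values given below for FPKM, quantile-normalized FPKM and TPM are from limma, so both the scale and the test differ from the edgeR fit.

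At the entry of the cycle, Cs (citrate synthase) had 100.5, 105 and 100.05 FPKM in the Control samples and 108, 114 and 114 with metformin. It had 67.8, 68.7 and 66.4 under FK506 and 67.2, 64.7 and 72.6 with both drugs. The FK506 groups overlapped each other and lay below both other groups. Pcx (pyruvate carboxylase, which makes oxaloacetate from pyruvate) had 9.19, 9.24 and 8.97 FPKM in Control and 5.03, 4.31 and 4.36 with metformin. With FK506 it had 1.72, 1.82 and 1.93, and with both drugs 1.53, 1.84 and 1.55. Pcx had the lowest level of the 9 members and the widest span, with a Control mean 5.57 times the lowest group mean.

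The isocitrate dehydrogenases followed different courses. Idh2, the mitochondrial NADP+-dependent enzyme, had 19.98, 19.6 and 19.2 FPKM in Control, 25.8, 25.8 and 26.2 with metformin, 12.1, 12.9 and 13.5 under FK506 and 13.6, 14.3 and 14.3 with both drugs. Its 4 groups did not overlap. Idh3a, the catalytic alpha subunit of the NAD+-dependent enzyme, had 21.9, 22.7 and 23.8 in Control, 14.1, 15.3 and 15.9 with metformin, 16.3, 17.0 and 14.8 under FK506 and 17.0, 17.3 and 18.6 with both drugs. Control lay above the other groups, and neighbours among those overlapped in order of level. Idh3b, the beta subunit of the same enzyme, had 80.3, 83.5 and 79.4 in Control, 103, 103 and 104 with metformin, 73.6, 67.4 and 66.7 under FK506 and 69.1, 66.3 and 69.6 with both drugs. In FPKM the alpha subunit was thus lowest on average with metformin alone, where the beta subunit was highest, but with TMM scaling the alpha subunit was lower with FK506 (-0.72 against Control) than with metformin (-0.63).

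Ogdh, the first enzyme of the 2-oxoglutarate dehydrogenase complex, was the member with its lowest level in Control. It had 25.3, 24.6 and 22.7 FPKM there, 30.0, 33.3 and 29.9 with metformin, 40.3, 44.6 and 41.6 under FK506 and 42.8, 38.8 and 41.2 with both drugs. Suclg1, the alpha subunit of succinyl-CoA ligase, which works on the product of that complex, had 79.3, 80.6 and 80.6 in Control, 50.02, 51.8 and 49.8 with metformin, 46.2, 42.5 and 42.9 under FK506 and 41.1, 39.5 and 42.9 with both drugs. For both genes the order was Control, Metformin and then the FK506 groups, rising for Ogdh and falling for Suclg1, and the FK506 groups overlapped each other.

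The last steps moved least. Fh1 (fumarase) had 34.7, 36.1 and 35.8 FPKM in Control, 26.7, 30.1 and 27.9 with metformin, 33.1, 31.4 and 30.5 under FK506 and 27.7, 25.6 and 29.4 with both drugs. Mdh2, the mitochondrial malate dehydrogenase, was the most abundant member in every group, with 151, 157 and 150.1 in Control, 124, 127 and 124 with metformin, 129, 127 and 131 under FK506 and 126, 127 and 132 with both drugs. For both genes Control was highest, and the highest group mean was 1.29 and 1.22 times the lowest for Fh1 and Mdh2. The 3 treated groups of Mdh2 overlapped in order of level.

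**Figure D2:**
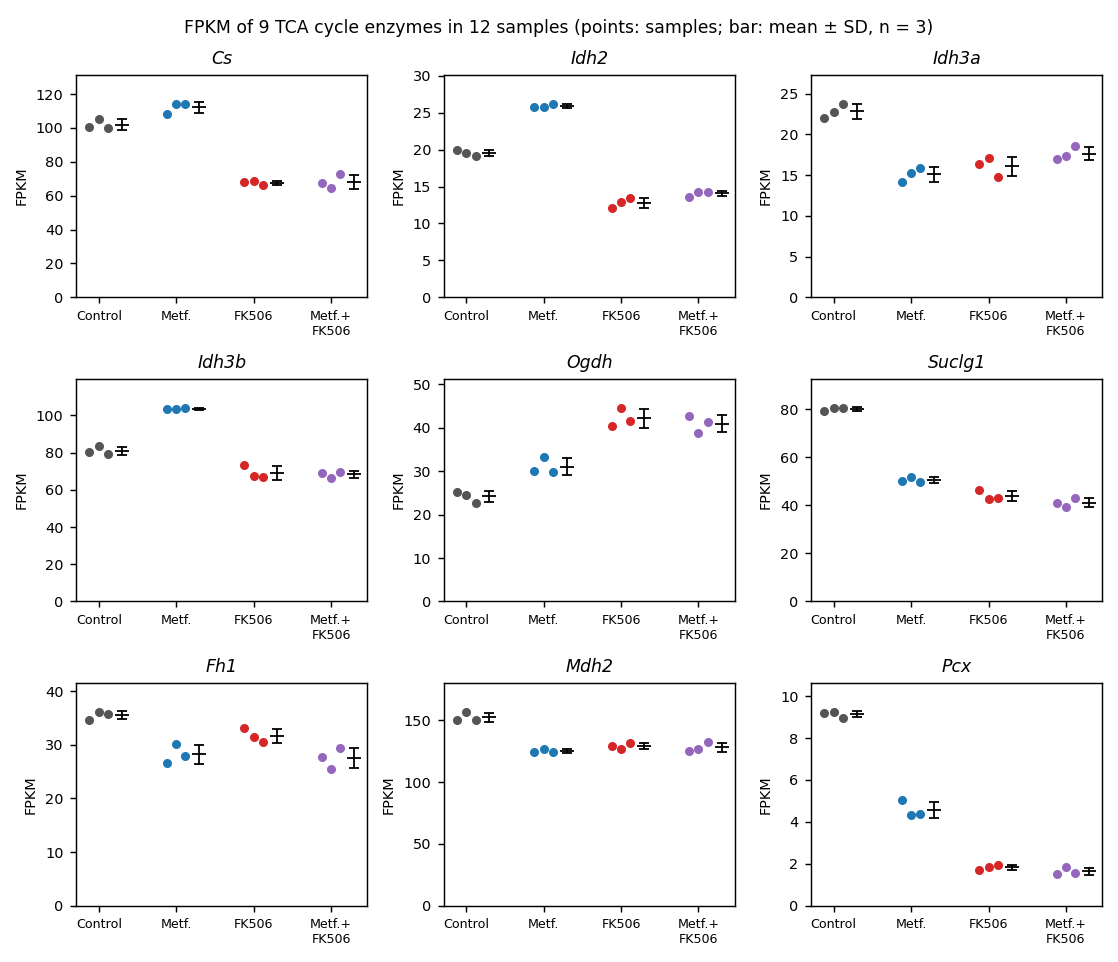
FPKM (y axis, linear from 0) of each of the 9 TCA cycle enzymes in the 4 treatment groups, with 1 point per sample and the mean ± SD (n = 3) beside each group. Ogdh runs from 22.7 to 25.3 in Control to between 38.8 and 44.6 in the groups with FK506, while Pcx runs from between 8.97 and 9.24 down to between 1.53 and 1.93.

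Metformin against Control shows which enzymes differed with metformin alone. All 9 members passed an adjusted p of 0.05, 4 higher and 5 lower, where 56% of all genes tested were called, 28.6% higher and 27.4% lower. On the log2 scale Pcx fell by 1.03 (SE 0.084, edgeR adjusted p = 2.66e-08), Suclg1 by 0.70 (SE 0.041, edgeR adjusted p = 4.2e-10) and Idh3a by 0.63 (SE 0.059, edgeR adjusted p = 1.62e-07). Pcx thus stood at 0.489 of Control and was the member that changed by over 2-fold, as did 10.5% of all genes. Fh1 had a log2 fold change of -0.36 (SE 0.054) and Mdh2 of -0.32 (SE 0.034). Idh2 rose by 0.37 (SE 0.048, edgeR adjusted p = 6.93e-06), Idh3b by 0.32 (SE 0.039) and Ogdh by 0.25 (SE 0.044, edgeR adjusted p = 0.000136). The change of Cs was 0.11 (SE 0.040, edgeR adjusted p = 0.0325), and it missed the threshold without any 1 of Control replicates 1 or 3, Metformin replicates 2 or 3 or the 3 FK506 replicates, with values of 0.092 to 0.097 and adjusted p of 0.0527 to 0.107. The call was also lost with no filter on low genes (0.091, edgeR adjusted p = 0.099) and with TPM (0.084, limma adjusted p = 0.0924). The FPKM of the 2 groups did not overlap for any member, nor for 65% of all genes. The members' median log2 fold change was -0.32, against 0.011 over all genes tested. Marker genes of other cells moved in this comparison too: of the 10 B cell markers 8 were higher and 1 lower (median 0.51 on the log2 scale), and both CD8 T cell markers were higher, Cd8a by 0.73 and Cd8b1 by 0.43. Among the myeloid markers, Cd68 rose from 4.22 to 4.41 FPKM in Control to 8.35 to 9.58, while Mpeg1 fell from 2.17 to 2.24 FPKM to 0.511 to 0.591, and Cd5l, also called lower, had at most 14 reads in Control and at most 2 with metformin. The part of these cells in the members' differences was not tested.

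FK506 against Control gave 1 member higher and 8 lower, where 80.9% of all genes were called, 41.3% higher and 39.6% lower. Pcx fell by 2.54 on the log2 scale (SE 0.090, edgeR adjusted p = 1.27e-13) to 0.172 of Control, and Suclg1 by 1.08 (SE 0.041, edgeR adjusted p = 2.79e-13) to 0.471. Both passed a 2-fold change, as did 36.6% of all genes. The FPKM of FK506 and Control did not overlap for any of the 9 members, nor for 84.4% of all genes. Idh2 and Cs fell by the same 0.81 (SE 0.049 and 0.040), although both had been above Control with metformin alone. Idh3a fell by 0.72 (SE 0.059). Ogdh rose by 0.55 (SE 0.044, edgeR adjusted p = 5.48e-09). The log2 fold changes of Mdh2, Idh3b and Fh1 were -0.46, -0.44 and -0.38, and all 3 calls were lost with TPM, where 1 member was higher and 5 were lower beside 83.4% of all genes called: with log2(TPM + 1), where the median of all genes was 0.422 higher with FK506, they were -0.0041, 0.0089 and 0.069 (limma adjusted p = 0.896, 0.817 and 0.22), or -0.426, -0.413 and -0.353 relative to that median. With quantile-normalized FPKM, Mdh2 stood at -0.061 (limma adjusted p = 0.0902). The directions of Cs, Idh2, Idh3a, Ogdh, Suclg1 and Pcx were the same on all scales tried. The members' median was -0.72, against 0.024 over all genes. The myeloid marker sum moved from at most 6.77 FPKM in Control to at least 1444 here, and that of B cell markers from at most 66.9 to at least 886. Of the 10 T cell markers, 4 were called higher and 6 lower, from Thy1 at -1.37 to Cd4 at 0.285.

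Metformin+FK506 against Control gave the same split of 1 higher and 8 lower, with 81.7% of all genes called, 42.1% higher and 39.6% lower. Pcx fell by 2.66 (SE 0.091, edgeR adjusted p = 7.92e-14) to 0.158 of Control and Suclg1 by 1.16 (SE 0.041) to 0.449. Cs fell by 0.78 (SE 0.040), Idh2 by 0.62 (SE 0.049), and Idh3a and Fh1 by 0.56 (SE 0.059 and 0.054). Ogdh rose by 0.60 (SE 0.044, edgeR adjusted p = 2.02e-09). Mdh2 and Idh3b each stood at -0.44, but Mdh2 was at 0.016 with quantile-normalized FPKM, and with TPM Mdh2 and Idh3b were at 0.017 and 0.023, where the median of all genes was 0.433. With TPM, 5 of the 9 members were called, beside 83.7% of all genes, and Idh3a and Fh1 were not, at -0.10 (limma adjusted p = 0.137) and -0.099 (limma adjusted p = 0.0871). The median over the members was -0.56, against 0.033 over all genes, and the marker sums were 1001 to 1122 FPKM for myeloid and 427 to 458 for B cells. Pcx and Suclg1 again changed by over 2-fold, as did 37.4% of all genes, and no member overlapped in FPKM, nor did 82% of all genes. This comparison shares its Control samples with the 2 before it.

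Metformin+FK506 against FK506 shows what differed when metformin was added. Of the 9 members, 1 was higher and 1 lower than with FK506 alone, where 30.7% of all genes were called, 15.6% higher and 15% lower. Idh2 rose by 0.19 on the log2 scale (SE 0.050, edgeR adjusted p = 0.00879) and Fh1 fell by 0.18 (SE 0.054, edgeR adjusted p = 0.0188). Fitted on the 2 groups alone, 1 member was called beside 24.8% of all genes, and the Idh2 call was lost (adjusted p = 0.0624). The Fh1 call was lost without FK506 replicate 1 (-0.15, adjusted p = 0.0797) or without Metformin+FK506 replicate 2 (-0.15, adjusted p = 0.063). Idh3a was at 0.16 (SE 0.060, edgeR adjusted p = 0.0578), and it passed with a filter on a mean FPKM of at least 1 (0.16, edgeR adjusted p = 0.0482), with quantile-normalized FPKM (0.17, limma adjusted p = 0.0439) and without FK506 replicate 2 (0.19, edgeR adjusted p = 0.0407). The other 6 members lay between -0.12 for Pcx and 0.044 for Ogdh, none of them past the threshold, and no member changed by 2-fold, as 4.21% of all genes did. The FPKM of the 2 groups was separate for 2 members and for 38.6% of all genes. Between these groups the B cell marker sum also differed, 427 to 458 FPKM with both drugs against 886 to 926, with all 10 markers called lower. The myeloid sum was 1001 to 1122 against 1444 to 1506, but its single markers went both ways. Of the 9 tested, 3 were called higher and 2 lower, with a median of 0.107 on the log2 scale. Lyz2 fell most, from a mean of 981 to 539 FPKM, while C1qc rose most, from 37.1 to 47.5.

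Adding FK506 to metformin gave 1 member higher and 7 lower under TMM, but 4 higher and 4 lower with TPM, where 78.2% of all genes were called under TMM, 40.3% higher and 37.9% lower, and 82.7% with TPM, of which 75.5% were higher. The largest falls among the members were those of Pcx, by 1.63 on the log2 scale (SE 0.091), Idh2, by 0.99 (SE 0.049), Cs, by 0.88 (SE 0.040), and Idh3b, by 0.76 (SE 0.039). Cs, Idh2 and Idh3b were 3 of the 4 members above Control with metformin alone, and the other, Ogdh, rose further, by 0.34 (SE 0.044, edgeR adjusted p = 2.12e-06). Pcx changed by over 2-fold, as did 32.2% of all genes. Idh3a was at 0.064 (SE 0.060, edgeR adjusted p = 0.335), but it was at 0.21 on the log2(FPKM + 1) scale (limma adjusted p = 0.00556) and at 0.53 with TPM, and its FPKM did not overlap between the groups. For 7 of the 9 members the FPKM did not overlap, as for 78.2% of all genes. Suclg1 stood at -0.46, Fh1 at -0.20 and Mdh2 at -0.13 under TMM, but with TPM, where the median of all genes was 0.446, they stood at 0.025, 0.283 and 0.354. Mdh2 also turned to 0.17 with quantile-normalized FPKM (limma adjusted p = 0.000297), so no direction is given for it. Fh1 was at -0.034 on the log2(FPKM + 1) scale (limma adjusted p = 0.589). The myeloid and B cell marker sums were higher here as well, from at most 10.2 to at least 1001 FPKM for myeloid and from at most 102 to at least 427 for B cell markers. The CD8 T cell marker sum was lower, from at least 12.9 to at most 8.64 FPKM. Both of its 2 markers were called lower under TMM and 1 with TPM.

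**Figure D3:**
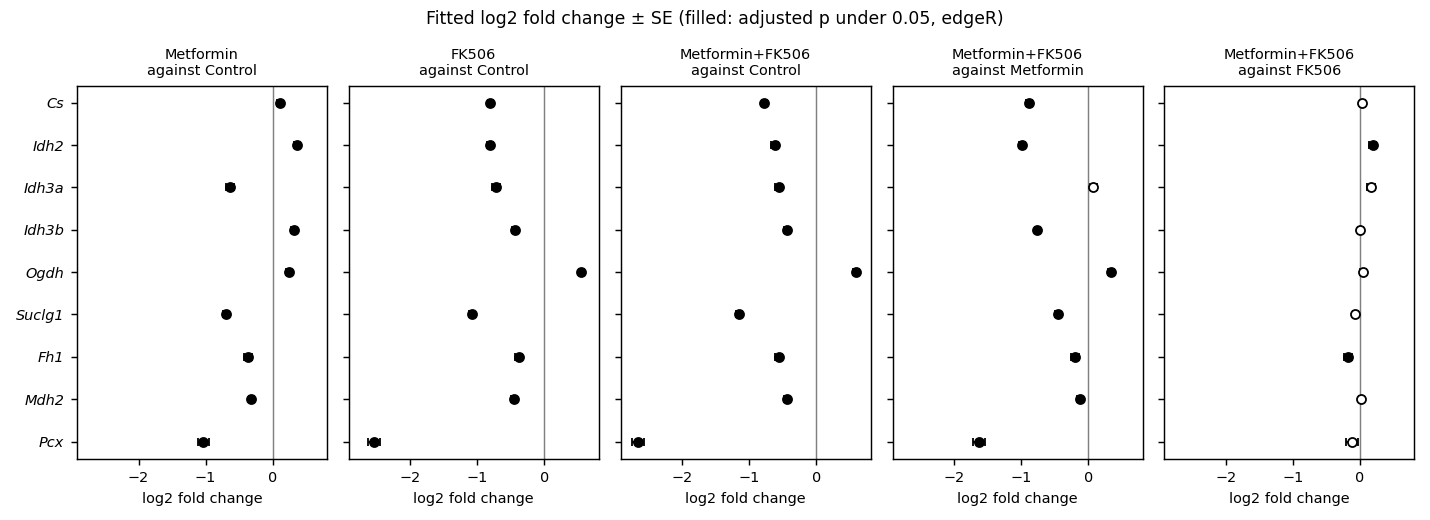
Fitted log2 fold change ± SE (x axis, counts scaled by TMM) of the 9 enzymes in 5 comparisons of groups, filled where the edgeR adjusted p was under 0.05. Ogdh lies right of 0 in each comparison with Control, Pcx lies furthest left, from -1.03 to -2.66, and the comparison of both drugs with FK506 alone clusters around 0. With TPM scaling Idh3b and Fh1 with FK506, and Idh3b and Mdh2 with both drugs, changed sign against Control, as did Suclg1, Fh1 and Mdh2 against Metformin, and Mdh2 with both drugs also with quantile-normalized FPKM.

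The effect of metformin depended on FK506 for 7 of the 9 members by the interaction term, 4 of them with a positive and 3 with a negative difference, where 46.5% of all genes were called, 22.5% positive and 24% negative. The metformin effect on Pcx was -1.03 without FK506 and -0.12 with it, a difference of 0.91 (SE 0.126, edgeR adjusted p = 1.83e-05). For Idh3a it was -0.63 without and 0.16 with FK506, a difference of 0.79 (SE 0.084, edgeR adjusted p = 1.16e-06), and for Suclg1 -0.70 and -0.070, a difference of 0.63. Mdh2 differed by 0.33, Idh3b by -0.32 and Ogdh by -0.21. For Idh2 the difference was -0.18 (edgeR adjusted p = 0.0466), a call that was lost in 9 of the 12 fits without 1 sample, with values of -0.21 to -0.15 over all 12, and with no filter on low genes (edgeR adjusted p = 0.082) or with the replicate number as a block (edgeR adjusted p = 0.0685). The difference did not pass for Fh1 at 0.18 (edgeR adjusted p = 0.0582), but it did with TPM (0.21, limma adjusted p = 0.0286) and without Metformin replicate 2 (0.23, edgeR adjusted p = 0.021), FK506 replicate 1 (0.22, edgeR adjusted p = 0.0374) or Metformin+FK506 replicate 2 (0.23, edgeR adjusted p = 0.0226). Nor did it pass for Cs at -0.074, which passed with quantile-normalized FPKM (-0.15, limma adjusted p = 0.0414). The B cell marker sum moved with these differences, from at most 66.9 FPKM in Control to at least 87.2 with metformin, but from at least 886 under FK506 to at most 458 with both drugs. In the interaction 9 of the 10 B cell markers passed with a negative difference, and of 9 myeloid markers tested 2 passed with a positive and 1 with a negative one. Their part in the members' values was not tested.

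Ratios of members within a library do not depend on the library scaling. The 13 ratios computed were chosen after the values had been seen, and with 3 samples against 3 the smallest p of an exact two-sided permutation test is 0.1, so they are given as values. The ratio of Idh3a to Idh3b FPKM was 0.282 ± 0.016 (SD, n = 3) in Control, 0.146 ± 0.008 with metformin, 0.232 ± 0.018 under FK506 and 0.258 ± 0.010 with both drugs. The Metformin samples, at 0.137 to 0.153, lay apart from all others. Idh3g, the gamma subunit, was at 0.648 ± 0.015 of Idh3b in Control and 0.584 ± 0.011 with metformin, but at 0.793 ± 0.025 under FK506 and 0.727 ± 0.037 with both drugs, so it was below Control with metformin alone and above it with FK506. Idh2 stood at 0.860 ± 0.051 times Idh3a in Control and at 1.72 ± 0.09 with metformin, so the NADP+-dependent enzyme had the higher FPKM with metformin alone, while the FK506 groups, at 0.802 ± 0.093 and 0.798 ± 0.028, overlapped Control.

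Ogdh was set against Dlst, Cs and Suclg1. Its FPKM was 0.617 ± 0.031 of that of Dlst, the succinyltransferase of the same complex, in Control, 0.812 ± 0.047 with metformin, 0.929 ± 0.048 under FK506 and 1.01 ± 0.05 with both drugs. Relative to Cs it was 0.237 ± 0.013 in Control and 0.277 ± 0.015 with metformin, but 0.623 ± 0.027 under FK506 and 0.602 ± 0.034 with both drugs. Suclg1 was 3.32 ± 0.21 times Ogdh in Control, 1.63 ± 0.06 with metformin, 1.04 ± 0.10 under FK506 and 1.01 ± 0.04 with both drugs. Succinyl-CoA ligase pairs the Suclg1 alpha subunit with an ADP-forming beta subunit, Sucla2, or a GDP-forming one, Suclg2. Sucla2 was 0.219 ± 0.010 of Suclg1 in Control, against 0.390 ± 0.013 with metformin, 0.484 ± 0.009 under FK506 and 0.480 ± 0.034 with both drugs. Pcx relative to Cs was 0.0896 ± 0.0019 in Control, against 0.0408 ± 0.0048, 0.0270 ± 0.0018 and 0.0242 ± 0.0037 in the same order. In these ratios Control lay apart from every treated group. Suclg2 was 0.126 ± 0.023 of Suclg1 in Control, 0.159 ± 0.015 with metformin, 0.195 ± 0.021 under FK506 and 0.188 ± 0.012 with both drugs, where Control overlapped Metformin and lay apart from the FK506 groups. Other members were also higher relative to Cs with FK506: Mdh2 was 1.495 ± 0.008 times Cs in Control, 1.12 ± 0.03 with metformin, 1.91 ± 0.07 under FK506 and 1.88 ± 0.07 with both drugs, and Fh1 was 0.349 ± 0.008, 0.251 ± 0.011, 0.468 ± 0.017 and 0.404 ± 0.009 of it in the same order. Mdh2 was 2.43 ± 0.08 times its cytosolic counterpart Mdh1 in Control, 1.77 ± 0.07 with metformin, 1.95 ± 0.08 under FK506 and 2.32 ± 0.01 with both drugs.

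**Figure D4:**
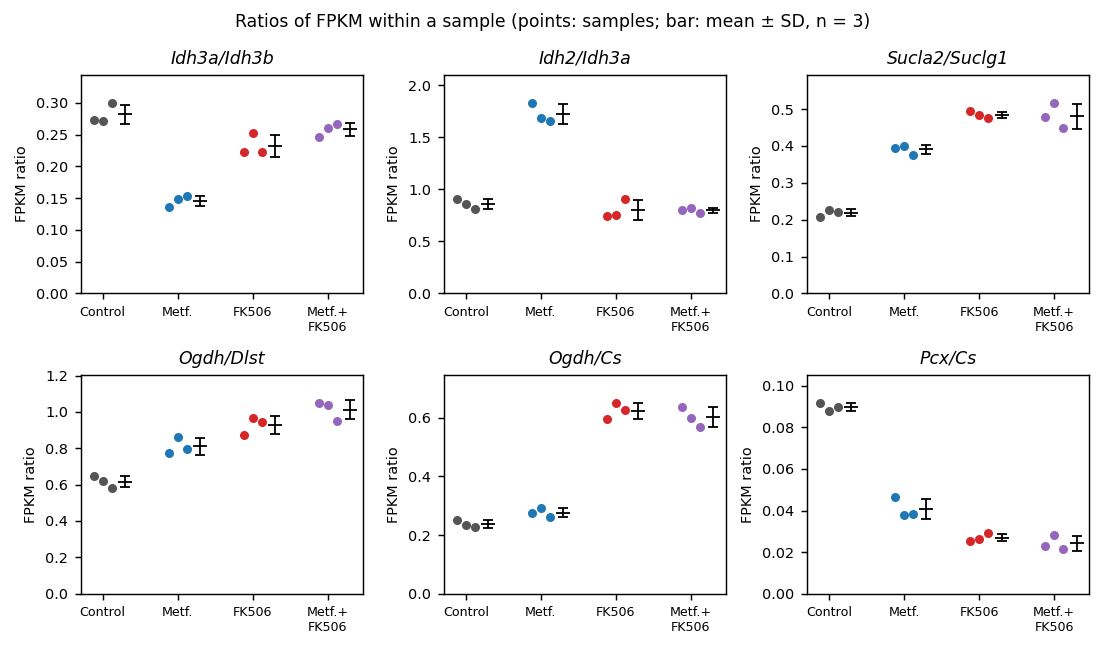
Ratios of FPKM within a sample (y axes, linear from 0) for 6 pairs of genes in the 4 groups, with 1 point per sample and the mean ± SD (n = 3). The Metformin samples stand apart from all other groups for Idh3a over Idh3b (0.137 to 0.153) and for Idh2 over Idh3a (1.65 to 1.83), while Ogdh over Cs separates the groups with FK506 (0.568 to 0.649) from those without (0.227 to 0.292).

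The other subunits and enzymes of the cycle were read from a list of 9 genes, all tested. With metformin alone 3 were higher and 3 lower, with FK506 1 and 6, with both drugs 0 and 7, beside the 56%, 80.9% and 81.7% of all genes called. With TPM the split was 3 higher and 4 lower with metformin, but 5 and 1 with FK506 and 4 and 1 with both drugs, beside 51.4%, 83.4% and 83.7% of all genes called. Suclg2, the GDP-forming beta subunit of succinyl-CoA ligase, was lowest of the list with metformin alone at -0.27 (SE 0.070). Sdhb, the iron-sulphur subunit of succinate dehydrogenase, was lowest with FK506 at -0.62 (SE 0.043) and with both drugs at -0.60 (SE 0.043). Dld, the dehydrogenase subunit shared by the pyruvate and 2-oxoglutarate complexes, was highest with metformin at 0.26 (SE 0.065). With FK506 it was at -0.28 under TMM and at 0.17 with TPM. Sdha, the flavoprotein of succinate dehydrogenase, was highest of the list in the other 2 comparisons, at 0.14 (SE 0.036) with FK506 and at 0.065 with both drugs, the latter not past the threshold. With metformin alone, Idh3g rose by 0.17 (SE 0.049) while Idh3a fell, and Dlst was at -0.069 (edgeR adjusted p = 0.169) while Ogdh rose. Against FK506, both drugs gave 1 call in this list (2 with DESeq2 size factors), where 30.7% of all genes were called: Dlst at -0.14 (SE 0.041, edgeR adjusted p = 0.0148), and Sdhc was highest at 0.039. Against Metformin, both drugs gave 7 lower and 0 higher, beside 78.2% of all genes called, from Dld at -0.56 to Dlst at -0.078, but 0 lower and 6 higher with TPM, so no direction is given for the list. In the interaction 5 of the 9 passed, beside 46.5% of all genes, from Idh3g at -0.29 to Sdhc at 0.28, the latter not past the threshold with quantile-normalized FPKM (limma adjusted p = 0.127).

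**Figure D5:**
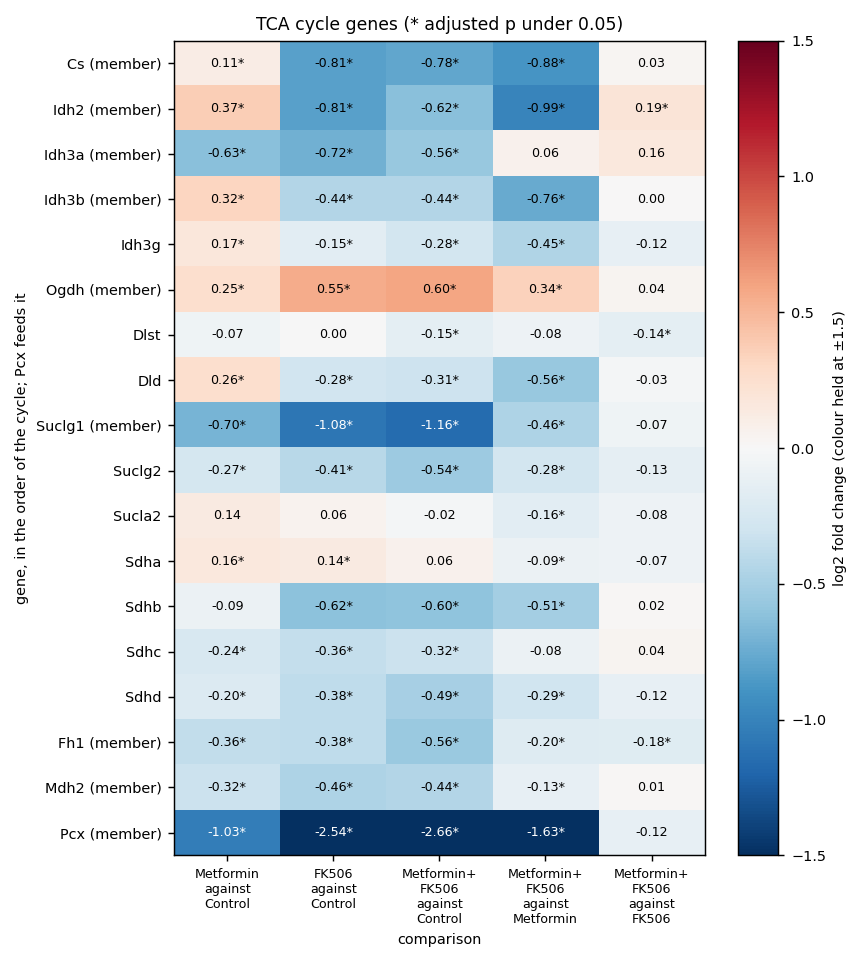
Log2 fold change (colour and number) of 18 TCA cycle genes, in rows by their place in the cycle, in 5 comparisons (columns), with a star where the edgeR adjusted p was under 0.05. Suclg1 is below 0 in each comparison with Control and Ogdh is above 0 in each, while Cs and Idh2 are above 0 with metformin alone and below 0 with FK506, on every scale tried. Idh3b, Idh3g and Dld show the same under TMM but turned to 0.0089, 0.30 and 0.17 with FK506 under TPM.

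Upstream of the cycle, 13 genes of pyruvate entry into mitochondria were tested. With metformin alone 4 were higher and 5 lower, with FK506 4 and 6, with both drugs 4 and 7, against FK506 2 and 4, and against Metformin 3 and 8, where 56%, 80.9%, 81.7%, 30.7% and 78.2% of all genes were called in the same order. With TPM the split with FK506 was 8 and 3, as it was with both drugs, and against Metformin it was 7 and 4. Pdk1, a kinase that switches off pyruvate dehydrogenase, was lowest with FK506 at -1.72 (SE 0.060) and with both drugs at -1.62 (SE 0.060), and had 41.5 to 43.4 FPKM in Control and 14.7 to 15.7 with FK506. It was also lowest for both drugs against Metformin, at -0.89. Pdk2, another of these kinases, was highest with metformin at 0.75 (SE 0.126) and with FK506 at 1.02 (SE 0.125), and lowest in the interaction at -1.06. Pdk4, of the same family, was scarce, at 0.0985 to 0.148 FPKM in Control. With at most 2 reads in each Metformin library it was at least 9.49-fold lower there than in Control, taking a floor of 3 reads per library, and it had 105 to 232 reads with both drugs, where it was highest against Control at 2.49 (SE 0.314) and against FK506 at 1.496 (SE 0.289). It was at least 53-fold higher with both drugs than with metformin alone. Pdk4 reached the 0.5 FPKM of the filter only with both drugs (0.642 to 0.935), against at most 0.383 under FK506. It was thus tested because it was high in that group, and its values there are a description. Mpc1, a subunit of the mitochondrial pyruvate carrier, was lowest for both drugs against FK506 at -0.33 (SE 0.061). The interaction term of Pdk4 was the highest of this list, but rests on the Metformin libraries at the floor, so its value is not given.

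Genes that supply the cycle from glutamine and propionate numbered 10, all tested. With metformin alone 5 were higher and 1 lower, with FK506 1 and 7, with both drugs 3 and 7, against FK506 1 and 1, and against Metformin 2 and 7, beside the same 56%, 80.9%, 81.7%, 30.7% and 78.2% of all genes. With TPM it was 3 higher and 4 lower with FK506, and the same with both drugs. Gpt2, the mitochondrial alanine aminotransferase, which makes 2-oxoglutarate from glutamate, rose by 0.67 (SE 0.088) with metformin, the highest of the list, and fell by 3.03 (SE 0.104) with FK506, the lowest. Its mean was 7.15 FPKM in Control, 11.7 with metformin, 1.00 under FK506 and 1.97 with both drugs, which put it highest against FK506 at 1.01 (SE 0.109) and highest in the interaction at 0.34 (edgeR adjusted p = 0.0598), the latter turning to -0.071 on the log2(FPKM + 1) scale. Gls2, a glutaminase, was lowest with metformin at -1.24 (SE 0.126), with both drugs against Control at -4.12 (SE 0.154), against FK506 at -3.01, against Metformin at -2.88 and in the interaction at -1.77. It had 10.8 to 11.8 FPKM in Control and 0.514 to 0.983 with both drugs. Pccb, a subunit of propionyl-CoA carboxylase, was highest with FK506 at 0.63 (SE 0.083), with both drugs at 0.66 (SE 0.083) and against Metformin at 0.39.

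Of 15 genes for the use of cycle intermediates and for cytosolic counterparts of the enzymes, 14 were tested and Me3 was not. With metformin alone 4 were higher and 9 lower, with FK506 6 and 8, with both drugs 6 and 8, against FK506 1 and 5, and against Metformin 8 and 6, again beside 56%, 80.9%, 81.7%, 30.7% and 78.2% of all genes. With TPM the split was 8 higher and 6 lower with FK506, 8 and 5 with both drugs and 9 and 4 against Metformin, and Acly and Mdh1 with FK506 turned from -0.27 and -0.14 to 0.18 and 0.31. Pck2, the mitochondrial phosphoenolpyruvate carboxykinase, which uses oxaloacetate, was highest with metformin at 0.91 (SE 0.034) and lowest with FK506 at -2.07 (SE 0.037), with both drugs at -1.99, against Metformin at -2.90 and in the interaction at -0.83. Its mean FPKM was 38.0 in Control, 72.5 with metformin, 10.8 under FK506 and 10.96 with both drugs. Acly, which splits citrate in the cytosol, fell by 0.80 (SE 0.033) with metformin while Cs was at 0.11, and the ratio of Cs to Acly FPKM was 1.48 ± 0.04 in Control, 2.78 ± 0.13 with metformin, 1.02 ± 0.04 under FK506 and 1.03 ± 0.04 with both drugs. The cytosolic enzyme Idh1 went opposite to Idh2 with FK506, from 2.21 to 2.87 FPKM in Control to 17.3 to 19.5, a rise of 2.63 (SE 0.083). Acod1, the itaconate-forming enzyme best known from activated macrophages, was lowest with metformin, with 59 to 83 reads in the Control libraries and at most 9 in those with metformin, and highest with FK506 at 3.43 (SE 0.210). It was also highest against Metformin and in the interaction, where the values rest on those few reads and are not given. Me1, the cytosolic malic enzyme, was highest with both drugs against Control at 3.95 (SE 0.197) and against FK506 at 0.85 (SE 0.159), and Slc25a10, the mitochondrial dicarboxylate carrier, was lowest against FK506 at -0.50 (SE 0.071). Acod1 and Me1 reached 0.5 FPKM in all 3 samples of a group only in the groups with FK506, through which they passed the filter. The rises of Idh1, Acod1 and Me1 came in the libraries whose myeloid marker sum was at least 1001 FPKM, and the part of those cells in them was not tested.

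Likeness of pattern is given as a description over the 12 samples, which fall into 4 groups and share the FPKM scale. Each member was set against the mean of the other 8, after log2(FPKM + 1) values were standardised. Pearson's r was 0.952 for Pcx and 0.942 for Suclg1, between 0.407 and 0.760 for Cs, Idh2, Idh3a, Idh3b, Fh1 and Mdh2, and -0.959 for Ogdh. The 5 other genes whose profile was most like the members' mean were Atp5b (r = 0.994), Btla (0.990), Psmb9 (0.989), Rdh11 (0.989) and Kars (0.989). Atp5b, the catalytic beta subunit of mitochondrial ATP synthase, had a mean of 528 FPKM in Control, 396 with metformin, 290.2 under FK506 and 271 with both drugs.

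Among rows for relatives of the members, Csl, a citrate synthase-like gene, had at most 3 reads in any library and Ogdhl, which resembles Ogdh, at most 63, while the cytosolic isoenzymes Idh1 and Mdh1 reached 2690 and 9023. How the counting treated reads shared with such copies was not given in the sources used here.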

How the data were processed

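Poly(A) RNA of 12 samples (4 groups of 3) was sequenced on a NovaSeq. The authors deposited 1 table with counts, FPKM and TPM for 45777 genes, and the submitters' processing notes name bcl2fastq 2.20.0, Trimmomatic, HISAT2 2.1.0, StringTie 2.1.3b and build mm10, with strand and counting options not given in the sources used here. The deposited counts were whole numbers and were tested as they were. The deposited FPKM and TPM values, which the authors scaled for gene length and library size, served for levels and alternatives. Libraries held 43402632 to 64290105 reads, and no 2 replicates agreed within sampling noise (chi-square per degree of freedom of 4.10 or more in 12 pairs).

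Genes with at least 0.5 FPKM in at least 3 samples (15197) entered the quasi-likelihood test of edgeR 4.0.16 (R 4.3.3) with TMM scaling, all 4 groups in 1 fit with 8 residual degrees of freedom, Benjamini-Hochberg adjustment over all genes tested and a threshold of 0.05. Groups came from the sample labels. Alternatives were DESeq2 1.42.0 and its size factors, no filter, a mean FPKM of at least 1, limma 3.58.1 on log2(FPKM + 1), log2(FPKM + 0.1) and quantile-normalized values, the compared groups alone, a replicate block, each sample left out, and, added after seeing the data, log2(TPM + 1). The fit was tested on simulated data. Members and gene lists were chosen with earlier results of these data known. Named were all members in every comparison, the highest and lowest gene of each metabolic list in each comparison, and the 5 genes most like the members. Other list genes were named after their values were seen, as were the ratios. Promoters and coordinates are RefSeq's (GRCm38.p6). One further gene of the metabolic lists is not reported here.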

Additional observations from a re-analysis of the deposited data

Results flagged for a closer look

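For 7 members the effect of metformin differed between cells with and without FK506, by the interaction term of the edgeR fit, which called 46.5% of all genes. The metformin effect with FK506 minus that without it, on the log2 scale, was 0.91 for Pcx, 0.79 for Idh3a, 0.63 for Suclg1, 0.33 for Mdh2, -0.32 for Idh3b, -0.21 for Ogdh and -0.18 for Idh2. Metformin and Control were separate in FPKM for all 7, and both drugs and FK506 alone for 1 of them, Idh2, as were 65% and 38.6% of all genes. The call for Idh2 (adjusted p = 0.0466) was lost in 9 of the 12 fits that left out 1 sample, with values of -0.21 to -0.15 over all 12 and an adjusted p of up to 0.117. The samples whose removal ended it were Control replicates 1 and 3, all 3 Metformin replicates, FK506 replicates 1 and 3, and Metformin+FK506 replicates 1 and 2. Gaps of a single sample from its group were not tested in these groups of 3.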

How the results depend on the processing

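Calls against Control for Idh2, Ogdh, Suclg1 and Pcx kept their direction and stayed past the threshold under every alternative run. So did those of Cs with FK506 or both drugs, of Idh3a with metformin or FK506 alone, and of Idh3b, Fh1 and Mdh2 with metformin alone. Leaving out 1 sample at a time gave 1 to 3 members called for both drugs against FK506 (2 with all samples, where 30.7% of all genes were called, and 1 after removal of either Metformin+FK506 replicate 2 or FK506 replicate 1), and turned the sign there for values near 0, with ranges of -0.019 to 0.051 for Cs, -0.031 to 0.046 for Idh3b and -0.012 to 0.026 for Mdh2. Fitting only the groups compared gave 1 call among the members in that comparison, beside 24.8% of all genes. There, Idh3b turned to -0.0066 with DESeq2 size factors, -0.0069 with DESeq2, -0.016 with no filter, -0.018 with log2(FPKM + 1) and -0.018 with log2(FPKM + 0.1). Mdh2 turned to -0.0064 with no filter and to -0.010 on both FPKM scales, and Ogdh to -0.041 and -0.042 on them and to -0.0099 with TPM. For both drugs against Metformin, Mdh2 turned to 0.033 on both FPKM scales, to 0.17 with quantile-normalized FPKM and to 0.35 with TPM, Suclg1 to 0.025 and Fh1 to 0.28 with TPM. Against Control with TPM, Idh3b and Fh1 turned to 0.0089 and 0.069 with FK506, Idh3b and Mdh2 to 0.023 and 0.017 with both drugs, and 5 members were called with both drugs. Mdh2 with both drugs turned to 0.016 with quantile-normalized FPKM. The median of all genes was shifted by up to 0.446 with TPM and by -0.032 to 0.021 with quantile-normalized FPKM. On the latter scale 7 of 9 members lay below that median for both drugs against Control (8 under TMM) and 6 against Metformin (7 under TMM). The cause of the sign changes was not tested. The share of called genes that were higher went from 51.6% to 71% with TPM for both drugs against Control, and from 51.6% to 75.5% against Metformin.

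Samples with the same replicate number did not deviate together (correlations of -0.0688 to 0.0484 in 18 pairs, none over 0.1, and 5 of 12 samples correlated best with their own number). No pairing by number was thus seen. A shared mouse or culture need not leave such a correlation, so the check cannot show that the samples were unpaired. With the number as a replicate block, 8312 genes were called for metformin against Control (8511 without it), and among the members the interaction call of Idh2 was lost (-0.18, adjusted p = 0.0685). Depth limits Pdk4 and Acod1 in the Metformin libraries, which had at most 2 and 9 reads.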
